A study of Mus musculus with 16 samples.

Results

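Myc and the genes that build ribosomes were described here as a group of 47 members in mouse bone marrow progenitors. The members are Myc itself and 46 genes for RNA polymerase I and nucleolar proteins, small nucleolar ribonucleoproteins (snoRNPs), and assembly factors of the small and large ribosomal subunits. They were chosen by name, with earlier results of these data known. Of the 47, 44 had a probe set that names no other gene, out of 30176 genes tested on the arrays. Gnl3, Nop56 and Ebna1bp2 were read only by probe sets that name a further gene, so their values are not analysed here. The samples were labelled as KSL cells (Lin- Kit+ Sca-1+, a gate rich in hematopoietic stem and multipotent cells) and KL cells (Lin- Kit+ Sca-1-, a gate of committed progenitors). Both were sorted from the bone marrow of WT mice and of Camkk2 null mice (Camkk2-/-, without the kinase CaMKK2), which are the KO samples of the study. Each of the 4 groups had 4 arrays, made from 16 mice per genotype, and the labels give no age, treatment or strain.

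Myc is a transcription factor that pairs with MAX and binds E-box DNA, and many genes of ribosome production are among its known targets. Ribosomes are made in the nucleolus, where RNA polymerase I transcribes the ribosomal RNA precursor, snoRNPs guide its chemical modification and cleavage, and separate sets of factors assemble the small and the large subunit. In bone marrow, resting stem cells make little protein, and progenitors that grow and divide make more.

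The labels carry limits that bear on every direction given here. Camkk2, the targeted gene, differed between the null and the WT label by -0.13 on the log2 scale in KSL (SE 0.243, adjusted p = 0.714) and by -0.05 in KL (SE 0.244, adjusted p = 0.923). It read between 7.11 and 8.02 on the KSL arrays labelled WT and between 7.14 and 7.93 on those labelled null, so it did not follow the genotype label. In all 4 groups replicates 1 and 2 read 7.81 to 8.02 and replicates 3 and 4 read 6.89 to 7.48, a split between replicate numbers that is part of these SEs. Whether the deleted stretch of the gene lies under its probes is not given in the sources used here. Few genes separated KSL from KL, 0.109% of all genes among the WT arrays and 1.07% among the null arrays, whereas 2564 genes were higher and 3182 lower on the KSL arrays labelled null. Arrays whose cell type and genotype labels had been exchanged could not, from these arrays alone, be told apart from the labelled design. The markers of the gate and of differentiation moved with the genotype label too. Kit was lower by 0.75 in KSL and by 0.64 in KL on the log2 scale. Of 11 measured stem and multipotent markers, 8 fell in KSL and 7 in KL, all 6 lymphoid-primed markers fell in both, and 10 of 11 erythroid markers rose in both. Under the null label, 4 of the 11 stem and multipotent markers were called lower in KSL than in KL, and 0 higher. Of the 11 erythroid markers, 4 were called higher in KSL than in KL there, and 0 lower. Under the WT label 0 were called in either list, with medians, KSL minus KL, of -0.19 and 0.15. These directions are the reverse of the order of the gates given above, and their cause was not tested. Ly6a, which encodes Sca-1, was not analysed here. In bulk RNA a different mix of cells and a different amount of RNA per cell cannot be told apart.

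Promoter sequences are shown because members that move together may share a sequence, and the E-box CACGTG is the motif that MYC with MAX is known to bind. CACGTG reads the same on both strands, so 1 search covers both. RefSeq windows of GRCm38.p6, from 250 bases before to 50 bases after the annotated start, were given for 38 of the 44 measured members. CACGTG stood in the windows of 8 of these 38 members (21.1%), beside 2187 of 27025 windows of all genes (8.09%). A match is a description of the letters and not a site of binding. The 8 runs are printed 5′ to 3′ on the strand of the gene, with the E-box in capitals.
Nop2, chr6:125131811-125131840, plus strand: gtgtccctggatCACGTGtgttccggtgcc
Utp18, chr11:93885769-93885798, minus strand: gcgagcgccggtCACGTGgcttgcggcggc
Pes1, chr11:3963965-3963994, plus strand: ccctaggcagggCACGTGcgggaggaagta
Wdr43, chr17:71616220-71616249, plus strand: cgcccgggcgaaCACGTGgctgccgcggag
Tsr1, chr11:74898092-74898121, plus strand: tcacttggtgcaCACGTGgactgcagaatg
Ltv1, chr10:13193092-13193121, minus strand: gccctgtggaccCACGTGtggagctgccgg
Utp20, chr10:88826765-88826794, minus strand: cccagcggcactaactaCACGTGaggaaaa
Mybbp1a, chr11:72441347-72441376, plus strand: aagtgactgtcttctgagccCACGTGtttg

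The E-box lay before the annotated start in 2 of the 8 genes, Nop2 and Utp18, and after it in the other 6. In Nop2 its first base was 60 bases before the start, within the following stretch of 250 bases that ends at the base before the start.
Nop2, chr6:125131633-125131882, plus strand: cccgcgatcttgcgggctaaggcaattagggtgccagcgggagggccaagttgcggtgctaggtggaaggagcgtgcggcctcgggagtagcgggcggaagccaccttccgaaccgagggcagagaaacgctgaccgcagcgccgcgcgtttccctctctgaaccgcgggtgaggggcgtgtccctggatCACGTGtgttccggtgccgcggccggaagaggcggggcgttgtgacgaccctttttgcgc
The 8 members with the motif had a median log2 change, null minus WT, of 0.35 in KSL and 0.45 in KL. The 30 members whose windows lacked it had medians of 0.30 and 0.41.

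Many of the ribosome biogenesis members gave a higher signal on the KSL and KL arrays labelled Camkk2 null, and none was called lower. Of the measured members, 7 were called in neither cell type, Myc among them. In KSL, 24 of the 44 measured members rose and 0 fell at an adjusted p under 0.05, beside 8.5% of all genes called higher and 10.5% called lower. In KL, 35 of the 44 rose and 0 fell, beside 7.13% of all genes called higher and 8.69% called lower. The median log2 change of the members was 0.30 in KSL and 0.39 in KL, against 0.05 and 0.03 over all genes tested. Changes were small in size, from -0.02 to 0.76 in KSL and from 0.10 to 0.78 in KL. With a fold of at least 1.5 required as well, 4 members passed in KSL (1.31% of all genes were higher by that rule) and 10 in KL (1.28%). These counts were 7 without KSL WT replicate 1 and 6 without KL null replicate 3. Every array labelled null lay above every array labelled WT for 21 members in KSL, where 14.9% of all genes did so, and for 38 members in KL, where 10.7% did. Of the members, 22 rose in both KSL and KL, which is 91.7% of those called in KSL and 62.9% of those called in KL. The share of all genes called in both was not computed. The KSL and KL comparisons share no arrays, but whether they share mice is not given in the sources used here. They cannot be taken as independent. Without adjustment, 31 members in KSL and 39 in KL had a p under 0.05, all higher, as 19.7% and 14.5% of all genes were. The methods' t-test with Benjamini-Hochberg adjustment called 18 members higher in KSL and 31 in KL, beside 7.28% and 4.98% of all genes, and 0 lower in either.

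**Figure D1:**
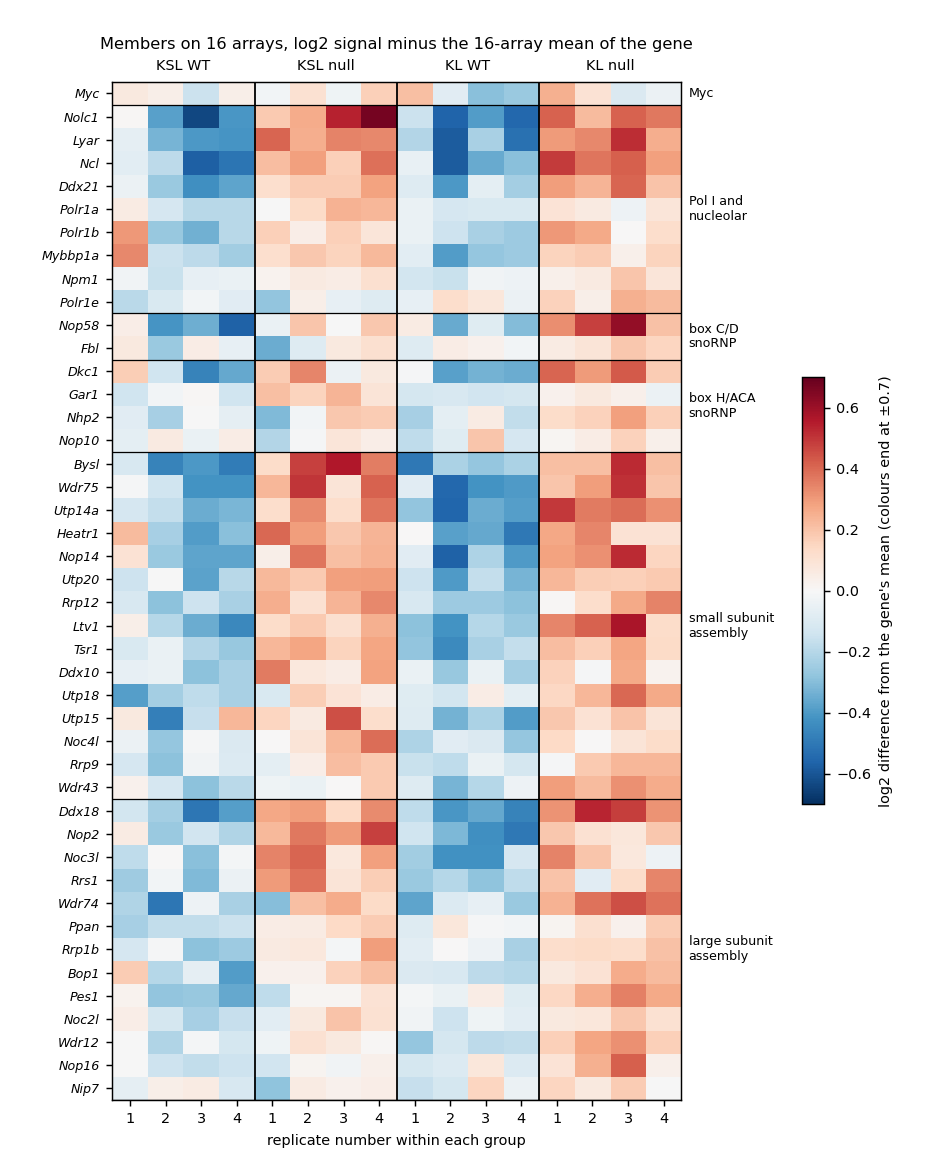
Each cell is the log2 signal of 1 of the 44 measured members (rows, by role) on 1 of 16 arrays (columns, 4 replicates in each of 4 groups) minus the mean of that gene over the 16 arrays. Most rows run from blue for WT to red for null in KSL and in KL, and the row of Myc does not.

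Averaged over the 44 members, the log2 signal after subtraction of each gene's 16-array mean was -0.03, -0.19, -0.23 and -0.22 on KSL WT replicates 1 to 4 and 0.06, 0.17, 0.15 and 0.22 on the KSL null replicates. In KL it was -0.13, -0.25, -0.16 and -0.23 for KL WT and 0.20, 0.19, 0.27 and 0.17 for KL null. The labels did not overlap in either cell type. KSL WT replicate 1 and KSL null replicate 1 came closest to each other. KSL WT replicate 1 was the highest of its group for 27 of the 44 members, and KSL null replicate 1 the lowest of its group for 23. With both of these arrays left out, a choice made after seeing the data, 28 members rose in KSL and the median change was 0.36.

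Myc itself read 10.12, 10.09, 9.90 and 10.09 on the log2 scale in KSL WT replicates 1 to 4. In KSL labelled null it read 10.03, 10.16, 10.02 and 10.22. These values overlapped, with a change of 0.06 (SE 0.0687, 95% interval -0.10 to 0.21, adjusted p = 0.567). In KL, Myc read 10.26, 9.97, 9.76 and 9.79 for WT and 10.30, 10.15, 9.95 and 10.01 for null. The KL groups overlapped as well, with a change of 0.16 (SE 0.116, 95% interval -0.10 to 0.42, adjusted p = 0.418). These intervals leave room for a small difference in either direction and end below the fold of 1.5. The KL interval includes the members' KL median of 0.39, so Myc is not shown to differ from the members there. In each of the 4 groups replicate 3 gave the lowest Myc value. KSL and KL did not differ detectably in Myc under the WT label, at 0.11 (95% interval -0.11 to 0.32), or under the null label, at 0.00 (95% interval -0.21 to 0.22). Of the other factors of the MYC network, 3 of 11 measured fell and 0 rose in KSL, and 3 fell and 1 rose in KL. Among all genes 10.5% fell in KSL and 8.69% in KL, and 8.5% and 7.13% rose. Under quantile normalization 3 of these factors fell and 2 rose in KSL, and 2 fell and 1 rose in KL. Mycn, a close relative of Myc, fell by 0.38 in KSL (SE 0.0666, adjusted p = 0.00335) and by 0.46 in KL (SE 0.0812, adjusted p = 0.00390). Mxd4, a partner of MAX that represses transcription, fell by 0.47 and 0.36, and Mlxip, a glucose-responsive factor of the wider network, fell by 0.54 in KSL and changed by -0.26 in KL (adjusted p = 0.0626).

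**Figure D2:**
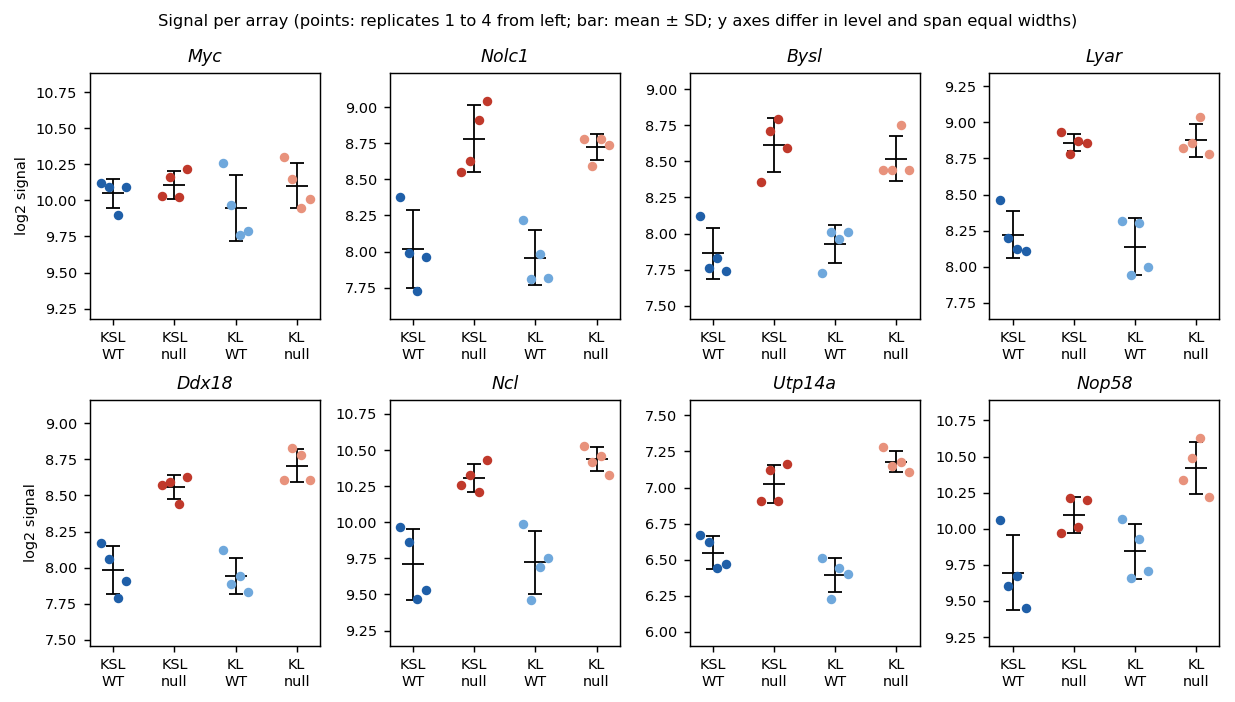
Log2 signal (y axis) on each of 4 arrays per group (points) with the mean and SD (bars) for Myc and 7 members named in the text, with y axes that differ in level and are equal in width. The Myc groups overlap, between 9.76 and 10.30, whereas Nolc1, Bysl, Lyar, Ddx18, Ncl and Utp14a separate the genotype labels in both cell types, and Nop58 does so in KL.

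Among the RNA polymerase I and nucleolar proteins, 5 of 9 measured members rose in KSL and 6 of 9 in KL. Nolc1, a nucleolar phosphoprotein that accompanies snoRNPs during their assembly, had the largest change of all members in KSL. It read 8.38, 7.99, 7.73 and 7.96 on the KSL WT arrays and 8.55, 8.63, 8.91 and 9.04 on the KSL null arrays. All null arrays were above all WT arrays, and the change was 0.76 (SE 0.146, a fold of 1.7, adjusted p = 0.00532). In KL, Nolc1 read 8.22, 7.81, 7.98 and 7.82 on the WT arrays against 8.78, 8.59, 8.78 and 8.74, a change of 0.76 (SE 0.0912, adjusted p = 0.000419). Lyar, a zinc finger protein of the nucleolus, followed the same order. It read 8.46, 8.20, 8.12 and 8.11 in KSL WT and 8.93, 8.78, 8.87 and 8.86 in KSL null, and the change was 0.64 (SE 0.0799, adjusted p = 0.000401). In KL it read 8.32, 7.94, 8.30 and 8.0 against 8.82, 8.86, 9.04 and 8.78, a change of 0.74 (SE 0.0978, adjusted p = 0.000764). Neither pair of groups overlapped.

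Nucleolin (Ncl), an abundant nucleolar RNA-binding protein, read 9.97, 9.86, 9.47 and 9.53 in KSL WT and 10.26, 10.33, 10.21 and 10.43 in KSL null. The change was 0.60 (SE 0.113, adjusted p = 0.00485). Its KL values were 9.99, 9.46, 9.69 and 9.75 on the WT arrays against 10.53, 10.42, 10.46 and 10.33, a change of 0.71 (SE 0.10, adjusted p = 0.00106). Nucleolin did not overlap between the labels in either cell type, and its WT arrays were more spread than its null arrays. Ddx21, a nucleolar RNA helicase, read 9.01, 8.79, 8.62 and 8.68 in KSL WT and 9.17, 9.23, 9.23 and 9.33 in KSL null, a change of 0.47 (SE 0.0827, adjusted p = 0.00344). In KL its values were 8.96, 8.65, 8.98 and 8.81 against 9.34, 9.29, 9.46 and 9.25, a change of 0.48 (SE 0.0795, adjusted p = 0.00256). Ddx21 therefore changed by nearly the same amount in both cell types without reaching the fold of 1.5.

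The polymerase subunits differed less. Polr1a, the largest subunit of RNA polymerase I, rose by 0.27 in KSL (SE 0.0778, adjusted p = 0.0403, lost without several single arrays, with adjusted p values up to 0.103 over the alternatives) and changed by 0.15 in KL (adjusted p = 0.0597). Polr1b, the second largest subunit, changed by 0.24 in KSL (adjusted p = 0.194) and rose by 0.34 in KL (SE 0.0753, adjusted p = 0.0126, and 0.0529 by the methods' t-test). Without KSL WT replicate 1 the KSL change of Polr1b was 0.38 and passed (adjusted p = 0.00210). Polr1e, a further subunit, did not pass in either, at 0.00 and 0.14. Mybbp1a, a nucleolar protein that binds the transcription factor MYB, rose by 0.38 in KL (adjusted p = 0.00446) and changed by 0.23 in KSL (adjusted p = 0.172), where KSL WT replicate 1 (9.22) lay above every null array. Nucleophosmin (Npm1), a nucleolar chaperone, changed by 0.13 and 0.18 without passing the test (adjusted p = 0.0837 and 0.0540), although its null arrays all lay above its WT arrays in both cell types. Npm1 passed in some alternatives, in KSL at 0.33 under quantile normalization (adjusted p = 0.00864) and by the methods' t-test (adjusted p = 0.0494), and in KL at 0.22 under quantile normalization (adjusted p = 0.00470).

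The snoRNP proteins gave mixed values. Box C/D snoRNPs methylate ribosomal RNA, and box H/ACA snoRNPs convert uridine to pseudouridine. Nop58, a core protein of box C/D snoRNPs, read 10.06, 9.60, 9.67 and 9.45 in KSL WT and 9.97, 10.21, 10.01 and 10.20 in KSL null. KSL WT replicate 1 lay above 2 of the 4 null arrays, and the change was 0.40 (SE 0.121, adjusted p = 0.0452). This call was lost when 1 of several arrays was left out, with adjusted p values up to 0.115 over the alternatives. In KL, Nop58 read 10.07, 9.66, 9.93 and 9.71 against 10.34, 10.49, 10.63 and 10.22, with no overlap and a change of 0.58 (SE 0.110, adjusted p = 0.00565). Fibrillarin (Fbl), the methyltransferase of the same particle, changed by -0.02 in KSL (adjusted p = 0.929) and by 0.13 in KL (adjusted p = 0.123). Dyskerin (Dkc1), the pseudouridine synthase of box H/ACA snoRNPs, read 8.95, 8.64, 8.31 and 8.42 in KSL WT and 8.96, 9.12, 8.74 and 8.85 in KSL null. These overlapped, with a change of 0.34 (SE 0.134, adjusted p = 0.104). In KL, Dkc1 read 8.77, 8.40, 8.45 and 8.43 against 9.19, 9.08, 9.21 and 8.96, a change of 0.60 (SE 0.0902, adjusted p = 0.00154) with no overlap. Of the partners of dyskerin, Gar1 rose by 0.25 in KSL and 0.15 in KL (adjusted p values up to 0.0668 and 0.120 over the alternatives), Nhp2 rose by 0.29 in KL with 0.10 in KSL, and Nop10 passed in neither, at -0.02 and 0.11.

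Small subunit assembly factors gave the highest share of calls, 11 of 15 in KSL and 15 of 15 in KL. Bysl, the mouse bystin needed for late steps of small subunit maturation, read 8.12, 7.76, 7.83 and 7.74 in KSL WT and 8.36, 8.71, 8.79 and 8.59 in KSL null. The labels did not overlap, and the change was 0.75 (SE 0.110, a fold of 1.68, adjusted p = 0.00114). In KL, Bysl read 7.73, 8.01, 7.96 and 8.01 against 8.44, 8.44, 8.75 and 8.44, a change of 0.59 (SE 0.0902, adjusted p = 0.00168). Utp14a, a component of the processome that cleaves the precursor RNA, had the largest change in KL. It read 6.51, 6.23, 6.44 and 6.40 in KL WT and 7.28, 7.15, 7.18 and 7.11 in KL null, a change of 0.78 (SE 0.0667, a fold of 1.72, adjusted p = 6.07e-05). In KSL, Utp14a read 6.67, 6.62, 6.44 and 6.47 against 6.91, 7.12, 6.91 and 7.16, a change of 0.48 (SE 0.0800, adjusted p = 0.00249). Both comparisons of Utp14a were free of overlap, and its 2 changes differed by -0.31 on the log2 scale, which did not pass the test of that difference (95% interval -0.53 to -0.08, adjusted p = 0.660).

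Wdr75, a processome protein that is also needed for ribosomal RNA transcription, read 7.97, 7.84, 7.56 and 7.56 in KSL WT and 8.21, 8.48, 8.07 and 8.39 in KSL null. The change was 0.55 (SE 0.116, adjusted p = 0.00847). In KL its values were 7.90, 7.43, 7.56 and 7.58 against 8.17, 8.27, 8.49 and 8.17, a change of 0.66 (SE 0.106, adjusted p = 0.00233). Wdr75 did not overlap between the labels. Heatr1, a large scaffold of the same early complex, read 7.93, 7.48, 7.32 and 7.42 in KSL WT and 8.11, 8.0, 7.90 and 7.95 in KSL null. KSL WT replicate 1 overlapped the lowest null array, and the change was 0.45 (SE 0.120, adjusted p = 0.0265). Over the alternatives its adjusted p in KSL reached 0.0854. In KL it read 7.71, 7.33, 7.35 and 7.21 against 7.98, 8.05, 7.81 and 7.81, a change of 0.51 (SE 0.104, adjusted p = 0.00811, and 0.0522 by the methods' t-test) with no overlap. The other called factors of the small subunit in KSL were Nop14, Utp20, Rrp12, Ltv1, Tsr1, Ddx10 and Utp18, between 0.31 and 0.44, of which the methods' t-test did not call Nop14, Ltv1 and Ddx10 (adjusted p = 0.0739, 0.0599 and 0.0615). Utp15, Noc4l, Rrp9 and Wdr43 rose in KL, by 0.26 to 0.44, and did not pass in KSL, where their changes lay between 0.17 and 0.28. In KL, Ltv1 (0.66) and Nop14 (0.63) also exceeded the fold of 1.5, and Ltv1 assists the export and final maturation of the small subunit.

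Large subunit assembly factors were called in 6 of 13 members in KSL (10 under quantile normalization, where 3055 of all 30176 genes rose) and 10 of 13 in KL. Ddx18, an RNA helicase, read 8.17, 8.06, 7.79 and 7.91 in KSL WT and 8.57, 8.59, 8.44 and 8.63 in KSL null. The change was 0.58 (SE 0.0835, adjusted p = 0.00103). In KL, Ddx18 read 8.12, 7.89, 7.94 and 7.83 against 8.61, 8.83, 8.78 and 8.61, a change of 0.76 (SE 0.0774, adjusted p = 0.000160), and in neither cell type did the labels overlap. Nop2, a methyltransferase of large subunit ribosomal RNA, whose promoter is printed above, read 9.28, 8.96, 9.09 and 9.01 in KSL WT and 9.45, 9.59, 9.52 and 9.70 in KSL null. The change was 0.48 (SE 0.0806, adjusted p = 0.00251). Its KL values were 9.08, 8.91, 8.79 and 8.72 against 9.41, 9.33, 9.30 and 9.41, a change of 0.49 (SE 0.0759, adjusted p = 0.00184), again with no overlap. Noc3l, Rrs1, Ppan and Rrp1b were the other called members in KSL, between 0.27 and 0.40. The KSL calls of Noc3l, Rrs1 and Rrp1b were lost with both KSL replicate 1 arrays left out (adjusted p = 0.0694, 0.0690 and 0.0967), and by the methods' t-test Noc3l did not pass in KL (adjusted p = 0.0583). Ppan passed in KSL and not in KL, at 0.29 and 0.10. Pes1, Bop1 and Wdr12 form the PeBoW complex of large subunit maturation, and all of them rose in KL, by 0.28, 0.31 and 0.42, while in KSL their changes of 0.21, 0.23 and 0.12 did not pass the test, although Pes1 and Wdr12 passed at 0.31 and 0.22 under quantile normalization (adjusted p = 0.0369 and 0.0245). Wdr74 and Noc2l rose in KL, by 0.56 and 0.18, with 0.32 and 0.19 in KSL. The KL call of Noc2l was lost in several alternatives, with adjusted p values up to 0.101, and both genes passed in KSL under quantile normalization. Nip7 and Nop16 passed in neither cell type, and Nop16 passed in KL under quantile normalization (adjusted p = 0.0255).

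**Figure D3:**
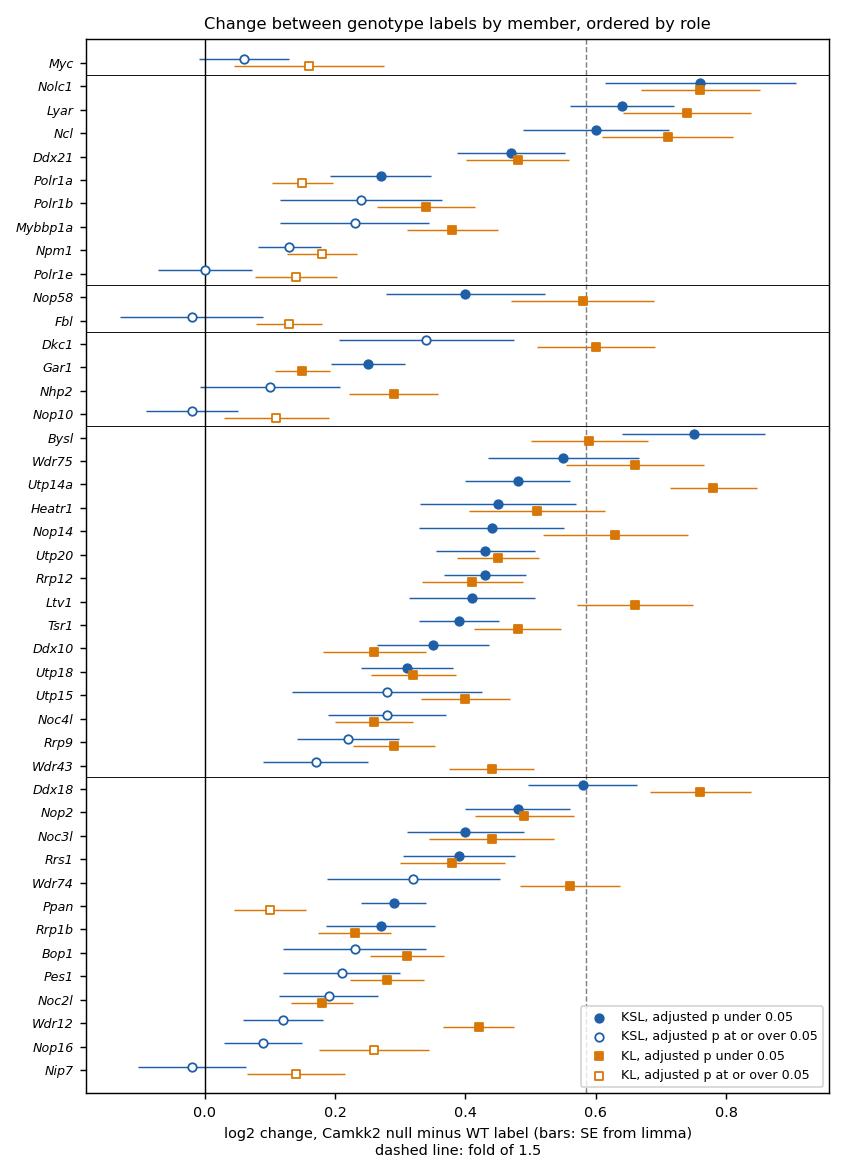
Log2 change, Camkk2 null minus WT label (x axis), of each measured member by role, with circles for KSL, squares for KL, filled symbols for an adjusted p under 0.05 and bars for the SE from limma. All 44 KL changes are above 0, from 0.10 to 0.78, and 41 of the 44 KSL changes are, with Fbl, Nip7 and Nop10 at -0.02.

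The difference between the KSL and the KL effect was tested on all 16 arrays. It was called for 0 of the 44 members and 0% of all genes, so a call in KL only is not shown to be particular to KL. The median difference, KSL minus KL, was -0.09 (-0.01 under quantile normalization), against 0.01 over all genes. Without adjustment, 3 members had a smaller and 1 a larger effect in KSL at a p under 0.05, beside 6.19% of all genes in either direction, and for Wdr12 the difference was -0.30 (95% interval -0.47 to -0.13, adjusted p = 0.470). Between KSL and KL under the WT label 0 of 44 members were called, with a median difference of 0.04 (-0.02 without KSL WT replicate 1), and 3 were lower and 1 higher at an unadjusted p under 0.05, beside 7.98% of all genes. Under the null label 0 were called as well, with a median of -0.05 (0.04 under quantile normalization), and 8 were lower and 2 higher without adjustment, beside 12.6% of all genes. The methods' t-test with adjustment called 0 members in either. The comparisons in this paragraph use the same arrays as those between the genotype labels.

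Beyond the members, lists of the same pathway gave lower counts. Of all genes, 8.5% were called higher and 10.5% lower in KSL, and 7.13% and 8.69% in KL. Lists of 13 genes are too short to tell counts of 2 or 3 from these shares. Of 48 other small subunit factors, 13 rose and 0 fell in KSL (median 0.12), and 20 rose and 0 fell in KL (median 0.20). Pno1 and Mphosph10, needed for small subunit processing, rose by 0.61 and 0.60 in KSL and by 0.68 and 0.81 in KL. Of 46 other large subunit factors, 13 rose and 3 fell in KSL (median 0.15), and 19 rose and 2 fell in KL (median 0.20). Under quantile normalization 20 factors rose in KSL in each of these lists, against 22 small and 21 large subunit factors in KL. With that scaling 3055 of all 30176 genes rose in KSL and 2496 in KL. Ftsj3, an RNA methyltransferase of ribosome production, rose by 0.61 and 0.59. The other RNA polymerase I genes were divided. Of 13 measured, 3 rose and 2 fell in KSL, and 3 rose and 3 fell in KL. Taf1b, a subunit of the factor that selects the ribosomal RNA promoter, fell by 0.44 in KSL and 0.47 in KL. Taf1c, of the same factor, rose by 0.33 in KSL with 0.22 in KL (adjusted p = 0.0540). Of 13 subunits and cofactors of the RNA exosome, which trims the precursor, 2 rose in KSL and 5 in KL, and 0 fell.

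The measured ribosomal protein genes showed no rise in the deposited values. Of 49 listed genes of large subunit proteins, 19 were measured. Of these, 0 were called in either cell type, with medians of -0.12 in KSL and -0.02 in KL. Of 33 listed genes of small subunit proteins, 17 were measured. Of these, 2 fell in KSL and 1 in KL, beside 10.5% and 8.69% of all genes, and 0 rose. These counts are close to those shares. The medians were -0.11 and -0.07. Rps4x was one of the genes that fell in KSL, by 0.28 (SE 0.0729, adjusted p = 0.0234), with -0.12 in KL (adjusted p = 0.125). Under quantile normalization the medians were 0.01 and 0.01 for the large subunit proteins and -0.01 and -0.03 for the small subunit proteins, with 1 small subunit gene called higher in each cell type, so their small shift in KSL depends on the scaling. The ribosomal protein genes without a probe set of their own are not analysed here, and processed pseudogenes can share probes with the measured ones.

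Other growth genes known to be bound by MYC were higher in part. The counts in this paragraph stand beside 8.5% of all genes called higher and 10.5% lower in KSL, and 7.13% and 8.69% in KL. Of 26 measured, 12 rose and 2 fell in KSL, and 16 rose and 0 fell in KL, with medians of 0.19 and 0.29. Tfrc, the transferrin receptor, rose by 1.38 in KSL and 1.25 in KL, and it is also on the erythroid marker list. Odc1, the first enzyme of polyamine synthesis, rose by 0.67 and 0.65, and Cad, which starts pyrimidine synthesis, by 0.56 and 0.71. Of 3 host genes of small nucleolar RNAs, 2 rose in each cell type, Snhg5 by 1.26 and 0.86 and 9430008C03Rik by 0.40 and 0.38, and Snhg6 did not pass, at -0.13 and -0.02. Of 20 measured cell cycle genes, 8 rose and 1 fell in KSL, and 12 rose and 0 fell in KL, with medians of 0.23 and 0.30. Ccne1, a cyclin of the entry into DNA synthesis, rose by 1.87 and 1.90.

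**Figure D4:**
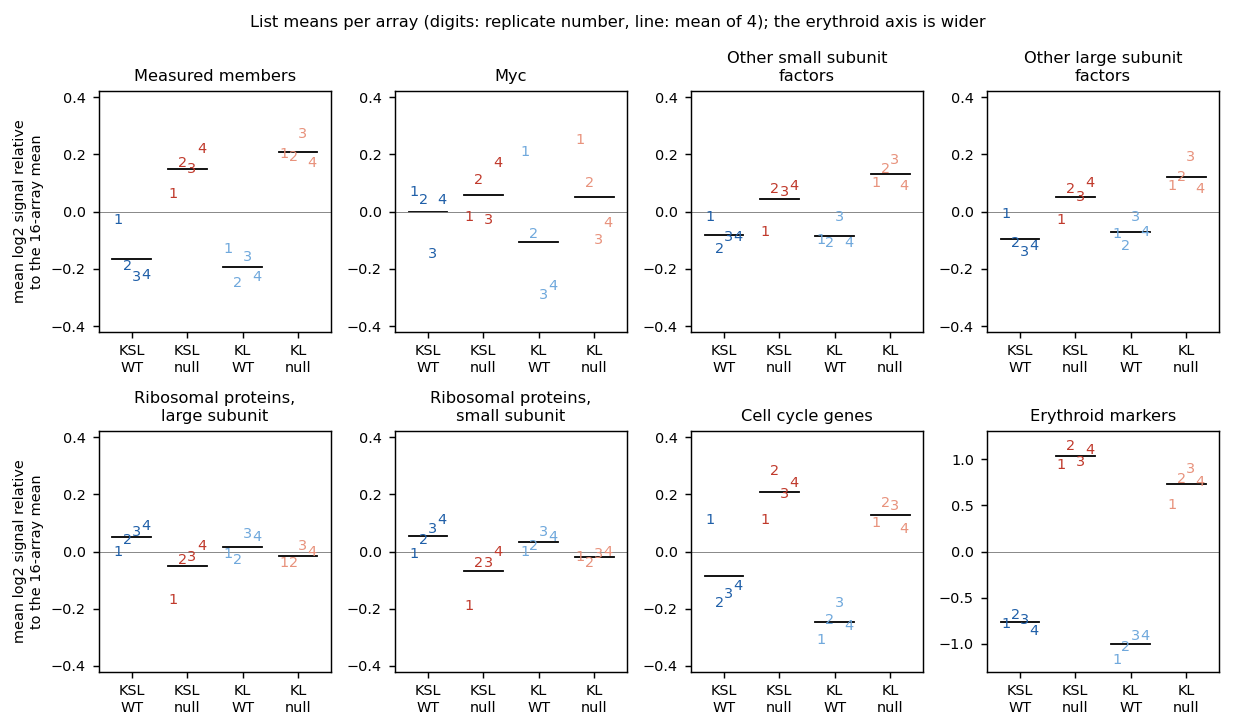
Mean log2 signal of each gene list relative to its mean over the 16 arrays (y axis), by group (x axis), with digits for the replicate number and lines for the mean of 4 arrays. The members' means on the WT arrays lie between -0.25 and -0.03 and those of the null arrays between 0.06 and 0.27, whereas the ribosomal proteins stay close to 0 apart from KSL null replicate 1, and the erythroid markers move with the genotype label on a wider axis.

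On the KSL replicate 1 arrays the cell cycle genes shifted with the members, and on KL WT replicate 1 they did not. The cell cycle genes averaged 0.11 on KSL WT replicate 1 and between -0.18 and -0.12 on the other KSL WT arrays, and this was the array on which most members were highest in that group. Their mean on KSL null replicate 1 was 0.11 as well, against 0.20 to 0.28 on the other KSL null arrays. On KL WT replicate 1 the members had the highest mean of that group (-0.13). The cell cycle genes (-0.31) and the erythroid markers (-1.17) had their lowest mean of the group there. The large subunit ribosomal proteins averaged -0.17 on KSL null replicate 1 and at least -0.03 on the other KSL null arrays. The erythroid markers averaged between -0.86 and -0.69 in KSL WT and between 0.94 and 1.14 in KSL null. In KL they averaged between -1.17 and -0.91 for WT and between 0.50 and 0.89 for null. The granulocyte-monocyte markers rose in 6 of 8 genes in KSL and 7 of 8 in KL, and Csf3r, the receptor of a granulocyte growth factor, fell by 1.24 and 1.04. Among markers of mature T and NK cells 1 of 6 fell and 0 rose in each cell type. Among those of macrophages and neutrophils 2 of 6 fell in KSL and 1 of 6 in KL. Megakaryocyte markers fell in 2 of 4 genes in KSL, and 1 of 4 rose in KL. Mature B cell markers fell in 1 of 3 genes in each cell type. Among all genes 10.5% fell in KSL and 8.69% in KL. The part of the cell mix and of the cell cycle in the members' difference was not tested.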

How the data were processed

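RNA from sorted KSL and KL cells was hybridised to 16 mouse arrays, 4 per group. The authors deposited log2 signals made with RMA in Partek 6.6, per the labels, and array medians ran from 5.01 to 5.12. RMA evens out the arrays and compresses small differences, and with no scanner files used here the background cannot be judged. The number of arrays limits the precision. Genes read by a probe set that lists only their symbol entered, each through its brightest such probe set, 30176 genes in all. Groups followed the labels. The tests used lmFit and eBayes of limma (version 3.58.1, under R 4.3.3) and were two-sided. They ran on the 8 arrays of each cell type, or on all 16 for the difference of effects and between cell types, with Benjamini-Hochberg adjustment over all genes. A gene rose or fell at an adjusted p under 0.05. The script was tested on simulated data. Quantile normalization, a floor on the mean of 5, averaged probe sets, an intensity trend, a replicate block, the methods' t-test, all 16 arrays in the fit and leaving out each array were the alternatives. The members and lists were chosen with earlier results of these data known. Values on every array are given for Myc, for the 10 members with the largest change in KSL, the 5 in KL and the largest of each role. From every other list at most the 3 largest changes in KSL were open to naming. Replicates are called biological in the series, and how mice were pooled is not given in the sources used here.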

Additional observations from a re-analysis of the deposited data

Results flagged for a closer look

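In 11 of 176 groups of 4 arrays (44 members in 4 groups), 1 array stood far from the other 3, by Dixon's test of the gap over the group's range at its 95% value. Chance alone gives about 1 in 20 groups. Myc read 9.90 on KSL WT replicate 3, below 10.09 to 10.12 on the others. KL WT replicate 1 was the highest for Polr1a (7.17), Dkc1 (8.77) and Rrp12 (7.43) and the lowest for Bysl (7.73). KL null replicate 3 was the highest for Bysl (8.75, with the others at 8.44) and the lowest for Mybbp1a (8.92). KSL WT replicate 1 was the highest for Mybbp1a (9.22, with the others between 8.64 and 8.73). Nop16 read 10.15 on KL WT replicate 3, Nip7 read 8.19 on KSL null replicate 1, below 8.50 to 8.53 on the others, and Rrp1b read 7.44 on KL null replicate 4.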

How the results depend on the processing

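The counts of members called higher in KSL and KL, the counts of 0 lower, and the counts of 0 in the other 3 comparisons stayed within 1.5 times under every alternative run. Leaving out single arrays gave 18 to 29 members higher in KSL and 31 to 34 in KL. Among the alternatives, the number of all genes called was computed only for quantile normalization and the methods' t-test. The other member counts therefore stand without it. Of the members called, 18 of 24 in KSL and 30 of 35 in KL stayed called whichever array was left out. Those lost without some array were Ddx10, Heatr1, Nop14, Nop58, Polr1a and Rrp1b in KSL and Ddx10, Gar1, Nhp2, Noc2l and Rrp1b in KL. Over every alternative run, 14 of 24 and 27 of 35 stayed called, with Gar1, Ltv1, Noc3l and Rrs1 lost as well in KSL and Heatr1, Noc3l and Polr1b in KL. With all 16 arrays in the fit, 27 rose in KSL. The count that also required a fold of 1.5 ran from 3 to 7 in KSL, with 7 without KSL WT replicate 1, and from 6 to 11 in KL, with 6 without KL null replicate 3. With both KSL replicate 1 arrays left out, chosen after seeing the data, it was 7.

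Quantile normalization called 31 members higher in KSL and 38 in KL, beside 3055 and 2496 of all 30176 genes, where the deposited values gave 2564 and 2151. It moved the members' median to 0.36 in KSL, that of KSL minus KL effects to -0.01 and that of KSL minus KL under the null label to 0.04. The last ones thus rest on the scaling, and the cause was not tested. Fbl, Nop10 and Nip7, at -0.02 in KSL, turned to 0.14, 0.07 and 0.05 under quantile normalization, and to 0.12, 0.02 and 0.05 with both KSL replicate 1 arrays left out. Without single arrays Fbl ran from -0.09 to 0.08, Nop10 from -0.05 to 0.04, Nip7 from -0.05 to 0.07 and Polr1e from -0.04 to 0.07. None of these passed the test.

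With the replicate block, 24 members rose in KSL and 34 in KL. In KSL these were not the same genes, since Polr1a, Nop58 and Rrp1b were lost (adjusted p = 0.0876, 0.0719 and 0.0618) and Dkc1, Rrp9 and Noc4l gained (adjusted p = 0.0331, 0.0489 and 0.0461). In KL, Gar1 and Noc2l were lost and Nop16 gained, and Myc changed by 0.16 in KL (adjusted p = 0.0984). Same-numbered arrays correlated between -0.09 and 0.24 in their deviations from the group means. Arrays of different numbers were not compared, so this check cannot tell whether the numbers pair the samples. Camkk2 and Myc did vary with the replicate number in every group, as given above.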
